A study of Mus musculus with 4 samples.

Results

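The genes described here are 41 genes of endoplasmic reticulum (ER) stress and of the early secretory pathway, out of 17762 genes listed in at least 1 of 4 adenoma libraries. They were chosen by symbol, for the known roles of their products as ER chaperones, unfolded protein response sensors and targets, translocon subunits and ER degradation factors. All 41 were listed in all 4 libraries and all 41 passed the filter on low counts. Polyadenylated RNA came from adenomas of C57BL/6 mice aged 110 days, all carrying ApcMin, a mutant allele of the tumour suppressor gene Apc. Of these libraries 2 are labelled ApcMin Strap KO, with Strap knocked out, and 2 are labelled ApcMin Strap WT, with Strap intact. The design text writes the KO genotype as StrapIEKO. The sources used here name neither the deleted part of Strap, nor the Cre driver, nor the animals behind each library. A p-value here therefore speaks of the spread among these 4 libraries alone.

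Proteins bound for the cell surface, for organelles of the secretory route or for export enter the ER through the SEC61 translocon, where chaperones fold them and disulfide isomerases form their disulfide bonds. Proteins that fail to fold are passed back to the cytosol for degradation. When unfolded proteins build up, the ER membrane sensors IRE1, ATF6 and PERK start the unfolded protein response, in which the transcription factors XBP1, ATF6 and ATF4 raise chaperone, degradation and stress genes. In the intestine this response is known for its weight in goblet and Paneth cells, which export large amounts of mucin and antimicrobial protein.

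A promoter element known as the ER stress response element (ERSE), to which ATF6 and the factor NF-Y bind, was found unevenly among the members, and its matches are shown because most of the chaperone genes carry one. Promoters of 34 of the 41 members were taken from RefSeq (build GRCm38.p6). Each reached from 250 bases before to 50 bases after a start listed for the gene. For Sec24d, on chromosome 3 from 123264801 to 123365641, the window began at 123267246, inside the gene. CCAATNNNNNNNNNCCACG was searched on both strands, with a spacer of 9 bases. It occurred in 9 of the 34 promoters (26.5%), against 39 of the 32851 promoters of the whole table (0.119%). Members were counted by gene and the whole table by promoter. The members were chosen partly as targets of this response, so an excess over all promoters was built into the choice. That holds for the elements searched below too. Hsp90b1 held a pair of matches, which gave 10 in all, lying between 26 and 194 bases before the start. Each is written 5′ to 3′ on the strand of the match, with the fixed bases in capitals and the spacer in lower case:
Hspa5, chr2:34772025-34772043, plus strand: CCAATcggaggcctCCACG
Hsp90b1, chr10:86705533-86705551, plus strand: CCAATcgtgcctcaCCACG
Hsp90b1, chr10:86705638-86705656, minus strand: CCAATcgcaaggagCCACG
Calr, chr8:84847075-84847093, plus strand: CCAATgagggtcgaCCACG
Canx, chr11:50325800-50325818, minus strand: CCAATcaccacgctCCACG
Pdia6, chr12:17266491-17266509, plus strand: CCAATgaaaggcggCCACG
Dnajc3, chr14:118937827-118937845, plus strand: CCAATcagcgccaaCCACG
Creld2, chr15:88819520-88819538, minus strand: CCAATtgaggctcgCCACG
Syvn1, chr19:6046532-6046550, plus strand: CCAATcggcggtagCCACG
Derl3, chr10:75893242-75893260, minus strand: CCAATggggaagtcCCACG

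The related element ERSE-II, searched as ATTGGNCCACG on both strands, occurred in 2 of the 34 promoters and in 0.0365% of all promoters. These sites are shown because neither gene has a match to the longer element, with the fixed bases in capitals:
Dnajb11, chr16:22857852-22857862, plus strand: ATTGGcCCACG
Herpud1, chr8:94386377-94386387, plus strand: ATTGGgCCACG

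The whole promoter window of Hspa5 is given because Hspa5, which encodes the chaperone BiP, is the standard reporter gene of the unfolded protein response, and that of Creld2 because Creld2 had the smallest p of all members. Both windows are on the plus strand of GRCm38.p6, written 5′ to 3′, with the fixed bases of the ERSE match in capitals:
Hspa5, chr2:34771840-34772139: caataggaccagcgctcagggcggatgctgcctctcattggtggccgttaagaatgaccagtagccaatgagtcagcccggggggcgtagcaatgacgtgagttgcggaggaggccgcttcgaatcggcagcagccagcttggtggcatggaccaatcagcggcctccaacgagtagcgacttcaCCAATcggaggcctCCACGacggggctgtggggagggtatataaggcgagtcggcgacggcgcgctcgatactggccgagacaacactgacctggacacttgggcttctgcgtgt
Creld2, chr15:88819396-88819695: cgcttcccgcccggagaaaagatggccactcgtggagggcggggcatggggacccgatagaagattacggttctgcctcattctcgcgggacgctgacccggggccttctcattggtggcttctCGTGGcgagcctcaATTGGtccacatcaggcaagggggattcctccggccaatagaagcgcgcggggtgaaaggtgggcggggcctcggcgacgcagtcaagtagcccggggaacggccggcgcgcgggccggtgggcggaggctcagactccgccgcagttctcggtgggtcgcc

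Each library held 14084831 to 15640941 expected counts, and replicates differed by far more than counting noise (chi-square over degrees of freedom 67.9 for the KO pair and 136 for the WT pair). Strap, the targeted gene, stood at 20.5 and 24.8 CPM (counts scaled to a common library total with TMM factors) in the KO libraries and at 157 and 112 CPM in the WT libraries, which is 16.9% of the WT level. WT replicate 1 correlated least with the KO libraries, at 0.903 and 0.911 on log2 CPM across genes, against 0.936 and 0.933 for WT replicate 2. The KO libraries correlated with each other at 0.961 and the WT libraries at 0.934. WT replicate 2 was thus about as close to the KO libraries as to WT replicate 1. In each genotype the library of replicate 1 had high Xist, at 197 CPM in KO and 968 CPM in WT, and the library of replicate 2 had Y-linked Ddx3y, at 33.3 CPM in KO and 39.1 CPM in WT, so the libraries of a genotype differed in sex. The tissue is labelled colon adenoma, but of 6 colon genes checked 5 were at most 4.22 CPM in any library, Slc26a3 being the exception. The summed level of 8 genes typical of the small intestine was 15828 and 14745 CPM in KO and 20223 and 9073 CPM in WT. They did not move together: both KO libraries stood above both WT libraries for Lct, Gata4 and Fabp2 and below them for Slc10a2. WT replicate 2 had the least Gata4 (155.9 and 165 CPM in KO, 133.9 and 27.3 CPM in WT) and the most of the ileal gene Fabp6 (894 and 118 CPM in KO, 422 and 2453 CPM in WT). Whether the libraries differ in intestinal region was not tested.

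Most genes for chaperones, disulfide isomerases and translocon subunits stood higher in both KO libraries than in both WT libraries, with P4hb and Ssr3 as exceptions, while the genes of 3 of the 4 sensors stood lower. In 26 of the 41 members (63.4%) both KO libraries exceeded both WT libraries, an order found in 25.5% of the 12769 genes tested. In 6 members (14.6%) both KO libraries were under both WT libraries, against 24.6% of the genes tested, and in 9 the groups overlapped. The median log2 fold change, KO over WT, was 0.31 over the members (quartiles -0.08 and 0.66) and 0.00 over all genes tested (quartiles -0.38 and 0.33). No member passed the edgeR test at an adjusted p under 0.05 over all genes, where 1 gene was called higher (0.00783%) and 0 lower (0%). The smallest adjusted p of a member in that test was 0.18. At an unadjusted p under 0.05 in edgeR, 9 members were higher in KO (22%, against 7.08% of genes tested) and 4 were lower (9.76%, against 8.69%). The shares of members lower in KO were thus under or near those of all genes. DESeq2, run as an alternative, called 3 members higher (7.32%, against 1.82% of genes tested) and 1 lower (2.44%, against 3.32%). These were Creld2, Hyou1 and Hspa5, which rose in KO in that test, and Ern2, which fell.

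**Figure D1:**
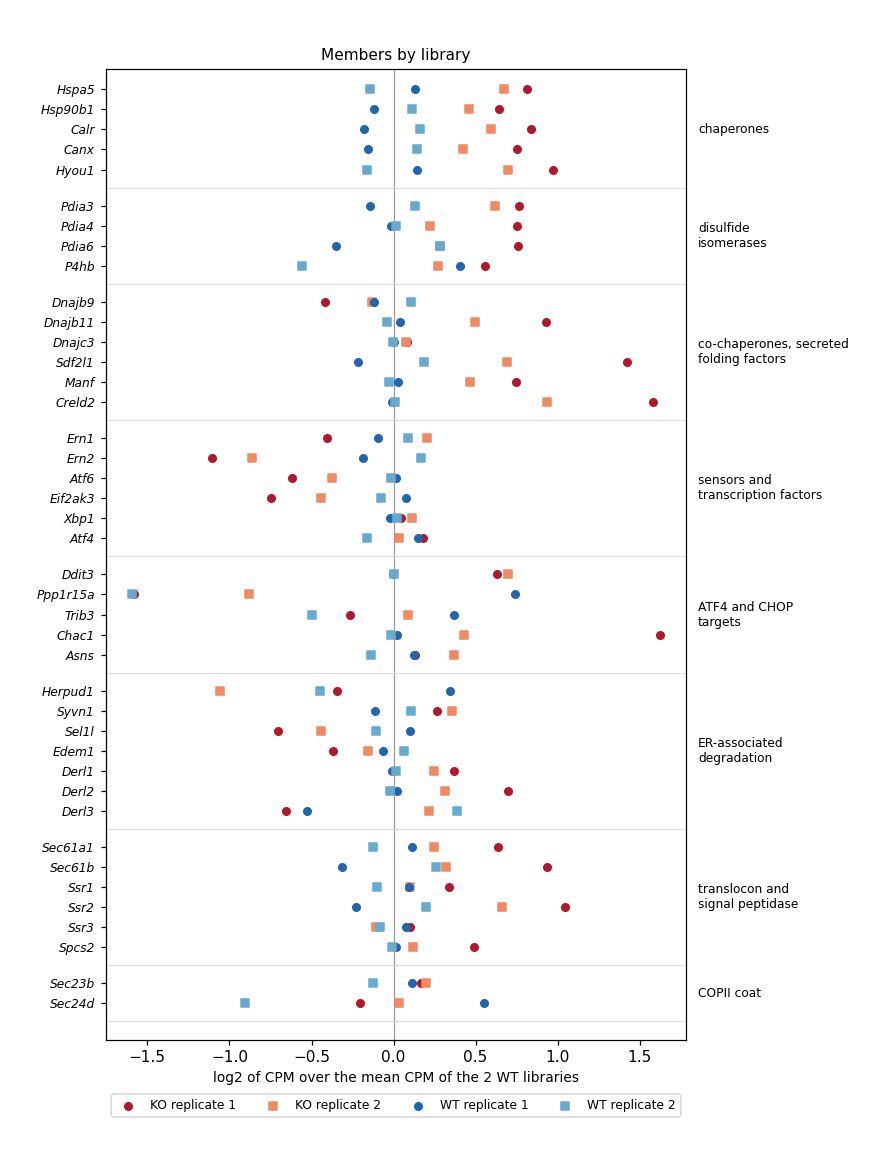
Level of each of the 41 members in each library, as the log2 of its CPM over the mean CPM of the 2 WT libraries, arranged by role. The KO points of all 5 chaperone genes lie to the right of the WT points, and those of Ern2, Atf6 and Eif2ak3 lie to the left.

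Highly expressed genes made up most of the members, and this bears on the background. By mean CPM 26 of the 41 were among the 2554 most abundant genes tested, of which 31.6% had both KO libraries above both WT libraries and 20% had them below. Of those 26 members 19 were above and 2 below. The members together took 1.2% and 1.14% of the counts in the KO libraries and 0.929% and 0.822% in the WT libraries. Their summed level was 12780 and 10933 CPM in KO and 9191 and 8133 CPM in WT. KO replicate 1 was the highest library for 24 members, and WT replicate 2 the lowest for 17. The order of the libraries was close in some genes. With library size in place of TMM, or with FPKM, 22 members had both KO libraries above both WT libraries, and Dnajc3, Xbp1, Asns and Sec23b then overlapped. With DESeq2 size factors the count was also 22, and Pdia6, Xbp1, Asns and Ssr1 then overlapped. The count below was 6 under each scaling, but with library size or FPKM Dnajb9 overlapped and Herpud1 took its place.

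All chaperone genes were higher in KO. The median log2 fold change of the 5 genes was 0.72. In 5 of 5 (100%, against 25.5% of genes tested) both KO libraries exceeded both WT libraries. Hspa5, on chromosome 2 from 34772090 to 34776529, encodes BiP, the ER member of the HSP70 family that holds the stress sensors inactive. It stood at 1027 and 931 CPM in the KO libraries and at 641 and 529 CPM in the WT libraries. The groups did not overlap, and the log2 fold change was 0.74 (SE 0.27, edgeR adjusted p = 0.285, DESeq2 adjusted p = 0.0466). Hyou1, whose product exchanges nucleotide on BiP, was at 296 and 244 CPM in KO and 166 and 135 CPM in WT. Its log2 fold change was 0.84 (SE 0.24, edgeR adjusted p = 0.235, DESeq2 adjusted p = 0.037), again without overlap.

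Calr and Canx encode calreticulin and calnexin, the lectins that hold new glycoproteins for folding. Calr was at 1370.3 and 1155 CPM in KO and 675 and 858 CPM in WT, and Canx at 852 and 678 CPM in KO and 454 and 557 CPM in WT. In both genes KO replicate 1 was highest and WT replicate 1 lowest. Hsp90b1, which encodes the ER member of the HSP90 family, was at 1019 and 898 CPM in KO and 600 and 704 CPM in WT. The log2 fold changes of Calr, Canx and Hsp90b1 were 0.72, 0.60 and 0.56, with edgeR adjusted p values from 0.315 to 0.373. Summed over the 5 chaperone genes, the level was 4565 and 3907 CPM in KO and 2536 and 2782 CPM in WT.

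Disulfide isomerases form and shuffle the disulfide bonds of secreted proteins. All 4 genes were higher in KO on average, with a median log2 fold change of 0.52. In 3 of the 4 (75%, against 25.5% of genes tested) both KO libraries exceeded both WT libraries. Pdia3, whose product works with calnexin and calreticulin, was at 1095 and 992 CPM in KO and 585 and 708 CPM in WT, with a log2 fold change of 0.69 (SE 0.27, edgeR adjusted p = 0.306). Pdia4 was at 202 and 140.1 CPM in KO and 119 and 122 CPM in WT, and most of its difference came from KO replicate 1 (log2 fold change 0.51, SE 0.25, edgeR adjusted p = 0.373). Pdia6 was at 280.3 and 202.3 CPM in KO and 130.2 and 202.0 CPM in WT, so that KO replicate 2 and WT replicate 2 were level. P4hb, which encodes the founding isomerase of the family and also a subunit of the prolyl hydroxylase and of the microsomal triglyceride transfer complex, was the most abundant member per length. Its FPKM, a level scaled by transcript length, was 1020.5 and 932 in KO and 990.2 and 509 in WT. It was high in 3 libraries and low in WT replicate 2, so the groups overlapped (log2 fold change 0.42, SE 0.41, edgeR adjusted p = 0.65).

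Co-chaperones and secreted folding factors included Creld2, the member with the highest log2 fold change. In 5 of 6 (83.3%, against 25.5% of genes tested) both KO libraries exceeded both WT libraries, and in Dnajb9 both were under them. Creld2, on chromosome 15 from 88819646 to 88826681, encodes a secreted protein induced by ER stress. It stood at 83.7 and 53.6 CPM in KO and at 27.8 and 28.2 CPM in WT, a log2 fold change of 1.29 (SE 0.27) or 2.45-fold. Its adjusted p was 0.18 in edgeR and 0.00578 in DESeq2. Sdf2l1, a partner of BiP and its ER-resident J proteins, was at 49.6 and 29.9 CPM in KO and 16 and 21.1 CPM in WT (log2 fold change 1.10, SE 0.32, edgeR adjusted p = 0.24). Creld2, Sdf2l1 and Hyou1 had the smallest edgeR p values among the members that were higher in KO.

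Dnajb11, which encodes an abundant J protein of BiP, was at 193 and 143 CPM in KO and 104 and 98.6 CPM in WT. Manf, a secreted factor made under ER stress, was at 164 and 135 CPM in KO and 99.8 and 95.7 CPM in WT. Their log2 fold changes were 0.73 (SE 0.23) and 0.61 (SE 0.20), with edgeR adjusted p values of 0.261 and 0.271. Not every J protein gene shared this pattern. Dnajc3, whose product binds misfolded proteins and brings them to BiP, was at 149.9 and 149.5 CPM in KO and 141.9 and 141.6 CPM in WT, a log2 fold change of 0.08. Dnajb9, which is known as a target of spliced XBP1 and whose product represses IRE1, was at 27.3 and 33.1 CPM in KO and 33.5 and 39.2 CPM in WT. Its log2 fold change was -0.27 (SE 0.22, edgeR adjusted p = 0.58).

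**Figure D2:**
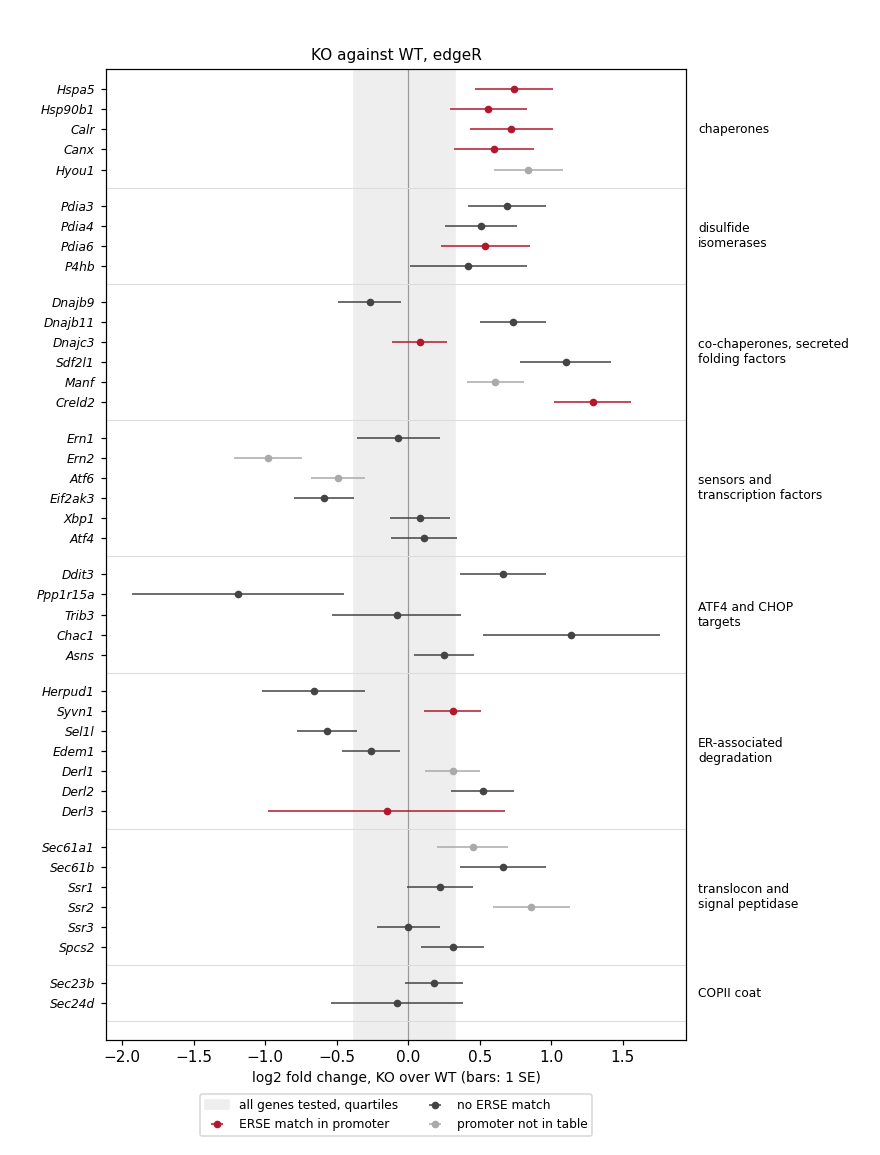
Log2 fold change of each member, KO over WT, from edgeR with bars of 1 SE, coloured by the ERSE match in its promoter, with the quartiles of all genes tested shaded (-0.38 and 0.33). Genes with a match run from -0.15 for Derl3 to 1.29 for Creld2, and the gene with the lowest value, Ppp1r15a at -1.19, has a wide error.

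The sensors ran the other way. Ern2, Atf6 and Eif2ak3 were lower in both KO libraries than in both WT libraries, and Ern1 was not. Of the 6 sensor and transcription factor genes 3 (50%) had both KO libraries under both WT libraries, against 24.6% of genes tested. Ern2, on chromosome 7 from 122169893 to 122186239, encodes IRE1-beta, the form of the sensor made in the epithelium of gut and airway and known from goblet cells. It stood at 17.1 and 20.2 CPM in KO and at 32.2 and 41.2 CPM in WT, which is 50.8% of the WT level. The log2 fold change was -0.98 (SE 0.24), with an adjusted p of 0.211 in edgeR and 0.0467 in DESeq2. Ern1, which encodes the widely expressed IRE1-alpha, was at 17.3 and 26.4 CPM in KO and 21.5 and 24.3 CPM in WT (log2 fold change -0.07, SE 0.29, edgeR adjusted p = 0.929). The ratio of Ern2 to Ern1 CPM was 0.988 and 0.765 in KO and 1.498 and 1.69 in WT.

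Ern2 was set beside markers of the cells known to make it. The summed level of 10 goblet cell genes was 9086 and 9283 CPM in KO and 5871 and 16264 CPM in WT, and all 10 were listed above 0 in each library. Among the goblet genes 9 of 10 overlapped between the groups, as did 6379 of the 12769 genes tested. In 1 of the 10 (10%) both KO libraries were under both WT libraries, against 24.6% of genes tested. The median log2 fold change of the 10 goblet genes was -0.26. For 10 Paneth cell genes the sum was 17203 and 10120 CPM in KO and 12628 and 36028 CPM in WT. All 10 Paneth genes had a log2 fold change under 0, with a median of -0.64. Without single libraries that median ran from -1.30 to 0.31. In 2 of the 10 (20%) both KO libraries were under both WT libraries, against 24.6% of genes tested. These were Lyz1, at 4611 and 4217 CPM in KO and 5708 and 14445 CPM in WT, and Pnliprp2, at 38.9 and 28.5 CPM in KO and 59.3 and 215 CPM in WT. Pnliprp2 fell in DESeq2 (adjusted p = 0.00885) and had an edgeR adjusted p of 0.247. The part of goblet and Paneth cells in the Ern2 values was not tested. In bulk RNA, fewer cells of a type and less RNA per cell cannot be told apart. The gene of Agr2, an ER protein of mucin-making cells, was, like the next pair, picked after its values were seen. It was at 597 and 555 CPM in KO and 275 and 747 CPM in WT. Txndc5, another isomerase gene, was at 289.9 and 297 CPM in KO and 345 and 442 CPM in WT, and Creb3l1, a gene for a membrane-bound transcription factor, was at 60.2 and 60.2 CPM in KO and 76.5 and 105 CPM in WT.

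Atf6, on chromosome 1 from 170704457 to 170868585, encodes the sensor that is cut in the Golgi to free a transcription factor. It was at 51.3 and 60.5 CPM in KO and 79.4 and 77.9 CPM in WT, a log2 fold change of -0.49 (SE 0.19, edgeR adjusted p = 0.303). Eif2ak3 encodes PERK, the kinase that phosphorylates eIF2-alpha and slows translation. It was at 26.0 and 32.0 CPM in KO and 45.8 and 41.1 CPM in WT, a log2 fold change of -0.59 (SE 0.21, edgeR adjusted p = 0.286). In both genes the KO libraries were low and the groups did not overlap. Per length the 4 sensor genes were far below the chaperone genes, with mean FPKM over the 4 libraries from 5.73 for Ern1 to 9.50 for Ern2, against 47.7 for Hyou1 to 536 for Calr. The ratio of Hspa5 to Atf6 CPM was 20.03 and 15.4 in KO and 8.08 and 6.79 in WT, and that of Hspa5 to Eif2ak3 was 39.6 and 29.1 in KO and 14.003 and 12.9 in WT.

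The transcription factor genes downstream of the sensors differed little. Xbp1, whose mRNA is spliced by IRE1, was at 237 and 249 CPM in KO and 227 and 234 CPM in WT, a log2 fold change of 0.08 (SE 0.21, edgeR adjusted p = 0.878). The values are summed per gene, so spliced and unspliced Xbp1 were not measured apart. Atf4, which is controlled mainly at translation, was at 268 and 242 CPM in KO and 262 and 212 CPM in WT, with overlap (log2 fold change 0.11, SE 0.23, edgeR adjusted p = 0.85).

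Target genes of ATF4 and of CHOP had no common direction. In Ddit3, Chac1 and Asns (3 of 5 or 60%, against 25.5% of genes tested) both KO libraries exceeded both WT libraries. In Ppp1r15a and Trib3 the groups overlapped. Ddit3, which encodes CHOP, a factor tied to cell death under lasting stress, was at 13.3 and 13.97 CPM in KO and 8.60 and 8.63 CPM in WT. Its replicates were close within each group, and the log2 fold change was 0.66 (SE 0.30, edgeR adjusted p = 0.35). Chac1, a glutathione-degrading enzyme gene, was low throughout, at 5.46 and 2.39 CPM in KO and 1.80 and 1.75 CPM in WT. The difference rested mainly on KO replicate 1, with a log2 fold change of 1.14 (SE 0.62, edgeR adjusted p = 0.422). Asns, the asparagine synthetase gene, was at 56.1 and 66.2 CPM in KO and 55.8 and 46.7 CPM in WT, so KO replicate 1 and WT replicate 1 were level.

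Ppp1r15a encodes GADD34, which helps remove the phosphate from eIF2-alpha. It was at 6.28 and 10.2 CPM in KO and 31.4 and 6.23 CPM in WT, so it was high in WT replicate 1 alone. Its log2 fold change was -1.19 (SE 0.74, edgeR adjusted p = 0.477), and 0.39 without WT replicate 1. Atf3 and Ddit4, stress-induced genes picked for this comparison after their values were seen, were highest in the same library. Atf3 was at 7.04 and 6.95 CPM in KO and 40.7 and 5.52 CPM in WT, and Ddit4 was at 24.6 and 12.8 CPM in KO and 59.6 and 20.8 CPM in WT. Trib3, a pseudokinase gene induced by CHOP, was at 5.87 and 7.50 CPM in KO and 9.11 and 4.996 CPM in WT, a log2 fold change of -0.08.

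The response element of ATF4 and its C/EBP partners, searched as TGATGNAA on both strands, occurred in 4 of the 34 promoters (11.8%), against 3.97% of all promoters. These were Asns, Chac1, Trib3 and Herpud1. As for ERSE, the choice of members built in an excess. The site of Chac1 is shown because Chac1 had the highest log2 fold change of these 4 genes, with fixed bases in capitals:
Chac1, chr2:119351049-119351056, minus strand: TGATGcAA

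Genes of ER-associated degradation were divided. SYVN1 and SEL1L are the ubiquitin ligase and its membrane partner in the main retrotranslocation complex of the ER. Sel1l was at 100.3 and 121 CPM in KO and 175 and 152 CPM in WT, a log2 fold change of -0.57 (SE 0.21, edgeR adjusted p = 0.296). Syvn1 was at 103 and 109 CPM in KO and 78.7 and 91.8 CPM in WT, a log2 fold change of 0.31 (SE 0.20, edgeR adjusted p = 0.477). Neither gene overlapped between the groups, and the ratio of Sel1l to Syvn1 CPM was 0.978 and 1.10 in KO and 2.23 and 1.66 in WT. Edem1, whose product marks misfolded glycoproteins by trimming mannose, was at 114 and 132 CPM in KO and 140.3 and 153 CPM in WT, with a log2 fold change of -0.26.

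The Derlins are channel-forming proteins of the same route. Derl2 was at 64.1 and 48.9 CPM in KO and 40.0 and 38.9 CPM in WT (log2 fold change 0.52, SE 0.22, edgeR adjusted p = 0.326), and Derl1 was at 135 and 124 CPM in KO and 103 and 105 CPM in WT (log2 fold change 0.31). In both genes the groups did not overlap. Derl3, known from secretory cells such as plasma cells, was close to absent, with 0.410 and 0.750 CPM in KO and 0.449 and 0.844 CPM in WT. The 9 B and plasma cell genes summed to 159 and 128 CPM in KO and 202 and 182 CPM in WT, nearly all of it from Sdc1, which epithelium also makes. Of the plasma cell genes, Jchain was at 0.342 and 7.16 CPM in KO and 10.8 and 2.40 CPM in WT, Mzb1 was at most 0.341 CPM and Tnfrsf17 at most 0.0642 CPM. Herpud1, which encodes a stress-induced scaffold of the complex, was at 102 and 62.4 CPM in KO and 165 and 95.2 CPM in WT. It was highest in WT replicate 1 and overlapped, with a log2 fold change of -0.66 (SE 0.36, edgeR adjusted p = 0.423).

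Translocon and signal peptidase genes were higher in KO, without overlap, in 5 of 6 members (83.3%, against 25.5% of genes tested). Ssr3 was level, and the median log2 fold change of the 6 was 0.38. Ssr2, the gene of a subunit of the translocon-associated TRAP complex, was at 392 and 301 CPM in KO and 163 and 218 CPM in WT. Its log2 fold change was 0.86 (SE 0.27, edgeR adjusted p = 0.26). Ssr1 and Ssr3 encode other subunits of TRAP. Ssr1 was at 286 and 243 CPM in KO and 242 and 212 CPM in WT, and Ssr3 was at 287 and 248 CPM in KO and 282 and 253 CPM in WT, with log2 fold changes of 0.22 and 0.00. Thus within 1 complex the ratio of Ssr2 to Ssr3 CPM was 1.37 and 1.21 in KO and 0.577 and 0.864 in WT.

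Sec61b, which encodes the small beta subunit of the channel, was at 126 and 82.6 CPM in KO and 53.2 and 79.2 CPM in WT (log2 fold change 0.66, SE 0.30, edgeR adjusted p = 0.358). The gap between KO replicate 2 and WT replicate 2 was small. Sec61a1, the gene of the pore itself, was at 433 and 331 CPM in KO and 301 and 256 CPM in WT, and Spcs2, a signal peptidase subunit gene, at 169.8 and 132 CPM in KO and 122 and 120.2 CPM in WT. Their log2 fold changes were 0.45 and 0.31, with edgeR adjusted p values of 0.434 and 0.514.

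Both COPII coat genes, whose products form the inner shell of vesicles that leave the ER, were without a clear difference. Sec23b was at 119 and 121 CPM in KO and 115 and 97.2 CPM in WT, a log2 fold change of 0.18 (SE 0.20, edgeR adjusted p = 0.679). Sec24d was at 125 and 147 CPM in KO and 211 and 77.0 CPM in WT, with the extremes both in WT (log2 fold change -0.08, SE 0.46, edgeR adjusted p = 0.948). The order of Sec24d, highest in WT replicate 1 and lowest in WT replicate 2, was also that of other genes picked after their values were seen. Ero1a, the gene of the oxidase that recharges disulfide isomerases, was at 104 and 157 CPM in KO and 201 and 71.2 CPM in WT. Creb3l3, the gene of a membrane-bound transcription factor of liver and intestine, was at 259.97 and 282 CPM in KO and 394 and 76.7 CPM in WT. Apoa4, an apolipoprotein gene of fat-absorbing enterocytes, was at 3340.4 and 1609.9 CPM in KO and 4201 and 143 CPM in WT.

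**Figure D3:**
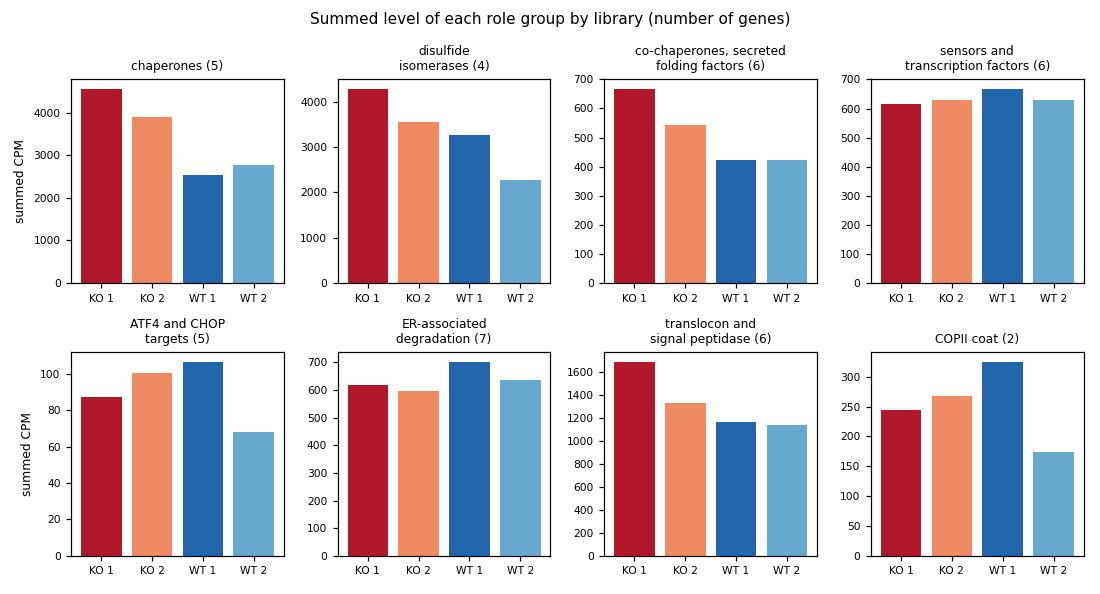
Summed CPM of the members of each role group in each library, with KO libraries left of WT libraries and the number of genes in each title. Chaperones, disulfide isomerases, co-chaperones and translocon genes are higher in both KO libraries. Sensors with their transcription factors span 617 to 630 CPM in KO and 630 to 668 CPM in WT.

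The ERSE match was compared with the direction of the members as a description. Of the 9 members with a match 8 had both KO libraries above both WT libraries and 0 had them below, with a median log2 fold change of 0.56. Under other scalings Dnajc3 and Pdia6, both among those 8, overlapped. Among the 25 members whose promoter held no match, 13 were above and 4 below, with a median of 0.18. The remaining 7 members, Ern2, Atf6 and Hyou1 among them, were not in the promoter table. Outside the members 9 tested genes carried a match, of which 2 were above and 1 below, with a median of 0.04. Of all genes tested, with or without a match, 25.5% were above and 24.6% below. A shorter element of XBP1, searched as TGACGTGG on both strands, was found in 1 member promoter, that of Sec24d, and in 0.676% of all promoters. It shares CCACG, read on either strand, with both ERSE forms.

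Transcript length moved with fold change in these libraries. Across all genes tested the median log2 fold change was 0.41 in the shortest of 10 equal groups by length and -0.30 in the longest, and Pearson's r between log2 length and log2 fold change was -0.21 across genes. Over the 41 members r was -0.39. Genes share libraries and are not independent replicates, so both are descriptions. Sdf2l1 (1118 bases), Ssr2 (1183 bases) and Creld2 (1364 bases) were among the shorter members, and Sel1l (6248 bases) and Atf6 (7463 bases) among the longer ones. Some ratios given above pair genes of unlike length: Ssr2 with Ssr3 (2885 bases), Sel1l with Syvn1 (3220 bases) and Hspa5 (2539 bases) with Atf6. The part of length in those ratios was not tested. With the median of all genes in the same length group taken away, a step chosen after seeing the data, the median over the members was 0.35. For single genes this left 1.09 for Creld2, 0.70 for Hspa5, 0.98 for Hyou1, -0.19 for Atf6 and -0.94 for Ern2 on the log2 scale. Of the other short and long genes named here, Sdf2l1 went from 1.10 to 0.69, Ssr2 from 0.86 to 0.66 and Sel1l from -0.57 to -0.27.

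**Figure D4:**
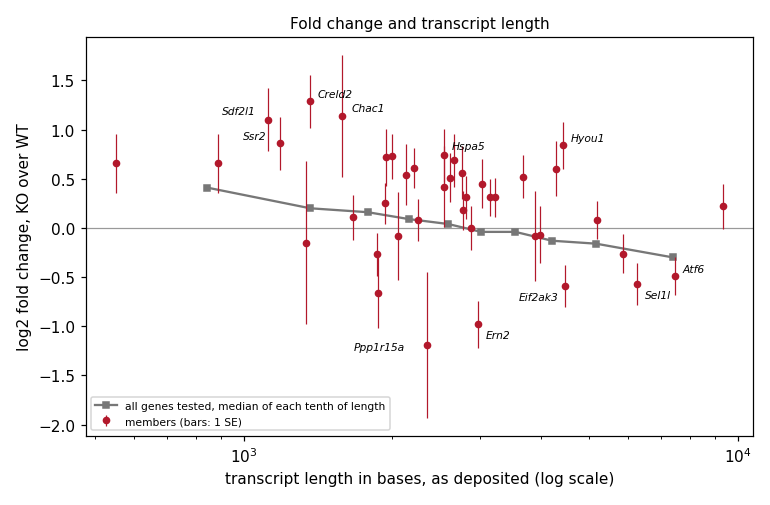
Log2 fold change, KO over WT, of the 41 members (bars of 1 SE) against transcript length on a log axis, with the median of all genes in each of 10 groups by length. The line runs from 0.41 for the shortest transcripts to -0.30 for the longest, with Hyou1 well above it and Ern2 well below it.

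Cell type markers were read beside these groups. The summed level of 9 T and natural killer cell genes was 30.6 and 276 CPM in KO and 50.4 and 35.5 CPM in WT, high in KO replicate 2 alone. The summed level of 7 fibroblast genes was at most 14.4 CPM, of 5 smooth muscle genes at most 4.88 CPM and of 8 macrophage genes at most 15.9 CPM in any library. Endothelial genes, 5 in all, summed to 1.37 and 2.39 CPM in KO and 41.8 and 2.14 CPM in WT, where 35.6 CPM of the sum in WT replicate 1 came from Cdh5 alone. Kdr was not listed in either KO library. The summed level of 8 epithelial genes was 11305 and 8949 CPM in KO and 10211 and 11436 CPM in WT. The 8 enteroendocrine genes summed to 182 and 295 CPM in KO and 160.3 and 217 CPM in WT. For pancreatic acinar cells 4 of 8 genes were listed, and the sum was 6.49 and 9.20 CPM in KO and 20.9 and 4.02 CPM in WT. The part of these cells in the results was not tested.

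A wider set of 140 genes of the same pathway, none of them a member, had more genes above than below as well. Of 137 tested, 63 (46%, against 25.5% of genes tested) had both KO libraries above both WT libraries. There were 14 (10.2%, against 24.6%) with both below, and the median log2 fold change of the 137 was 0.18. edgeR called 0 of them at an adjusted p under 0.05, with 16 higher (11.7%, against 7.08% of genes tested) and 4 lower (2.92%, against 8.69%) where p was left unadjusted. DESeq2 called 1 higher and 1 lower, 0.73% each way, under the 1.82% and 3.32% of all genes tested. The gene that rose in DESeq2 was Prdx4, an ER peroxidase, at 49.1 and 36.7 CPM in KO and 20.9 and 21.8 CPM in WT (log2 fold change 1.01, edgeR adjusted p = 0.201, DESeq2 adjusted p = 0.0377). The gene that fell in DESeq2 was Vldlr, a lipoprotein receptor and ATF4 target, at 2.39 and 4.16 CPM in KO and 14.9 and 9.54 CPM in WT (log2 fold change -1.90, edgeR adjusted p = 0.211, DESeq2 adjusted p = 0.0141).

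For other folding genes, 21 tested, the median log2 fold change was 0.33, with 11 above (52.4%) and 2 below (9.52%). Over all genes tested the shares were 25.5% above and 24.6% below, for this list and those that follow. Erp44, which retains unassembled proteins, was at 176 and 167.5 CPM in KO and 98.0 and 122 CPM in WT (log2 fold change 0.64, edgeR adjusted p = 0.271). The 28 other translocon, signal recognition and N-glycosylation genes also had a median of 0.33, with 15 above (53.6%) and 3 below (10.7%). The 2 with the smallest p were Sec61g (log2 fold change 0.97) and Sec61a2 (0.68). Other degradation genes, 21 in all, had a median of 0.15, with 11 above (52.4%) and 0 below (0%), led by Rnf139 (0.52) and Aup1 (0.67). Genes of transport between ER and Golgi, 29 in all, stood near the median of all genes, at 0.07, with 11 above (37.9%) and 4 below (13.8%). The first genes of that list by p were Arfgap3 (-0.54) and Sec13 (0.66).

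Further ATF4 targets, 21 tested, had a median of 0.27, with 10 above (47.6%) and 2 below (9.52%). Mthfd2, a mitochondrial folate enzyme gene, was at 28.3 and 27.3 CPM in KO and 15.3 and 18.2 CPM in WT (log2 fold change 0.73, edgeR adjusted p = 0.268). The 17 other regulators of the response had a median of -0.09, with 5 above (29.4%) and 3 below (17.6%). Among them Eif2ak2, the interferon-induced kinase gene for PKR, was at 61.7 and 67.3 CPM in KO and 39.5 and 42.9 CPM in WT (log2 fold change 0.65, edgeR adjusted p = 0.245). Ppp1r15b encodes the constitutive counterpart of GADD34 in eIF2-alpha dephosphorylation. It was at 298 and 262 CPM in KO and 175 and 180.0 CPM in WT (log2 fold change 0.66, edgeR adjusted p = 0.268). Thus of the 4 eIF2-alpha kinase genes, Eif2ak2 lay above in both KO libraries and Eif2ak3 and Eif2ak4 (log2 fold change -0.48) lay below, while Eif2ak1 (-0.09) overlapped.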

How the data were processed

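Per the submitters' processing notes, Bowtie2 2.2.5, RSEM 1.2.12 and the build mm10 were used, with no role or order given. The authors deposited 1 table a library with RSEM's expected counts by gene, as its headers name them. The deposited tables also hold FPKM, computed by the authors. The lowest FPKM listed was 0.01, and genes not listed in a library entered the fits as 0. The sources used here do not state strandedness, so overlapping and antisense genes cannot be told apart.

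Tables were joined on gene identifier with pandas 2.3.3, 1 row without a gene was left out per library (at most 0.000233% of counts), and 744 symbols were brought to RefSeq's current form by identifier, 25 of them date-like. Expected counts were rounded. The test of KO against WT was run with edgeR 4.0.16 in R 4.3.3 (quasi-likelihood test, genotype alone, TMM scaling, filterByExpr), over 12769 genes with Benjamini-Hochberg adjustment. TMM factors were 0.9365 and 1.043 in KO and 1.013 and 1.011 in WT. CPM uses these factors. The SE is the log2 fold change over the root of F. edgeR estimated a biological coefficient of variation of 32.5% on 2 residual degrees of freedom. With 2 libraries against 2, an exact permutation test cannot pass 0.05, and none is given.

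The members, their role groups and the other lists were chosen with earlier results of these data known. All members are named. Values in every library are given by rule for Hspa5, Xbp1, Atf4, Ddit3, the 4 sensors and the 2 members of each role group with the smallest p, and here for the other members too. Of each wider list the 2 genes with the smallest p are named, some by log2 fold change alone. Marker and other genes were added after their values were seen. Alternatives were DESeq2 1.42.0 (on the same filtered genes), limma 3.58.1 (trended) on log2 of the deposited FPKM plus 1 or plus 0.1, other scalings and filters, a block for the replicate number, fits without single libraries, and an adjusted p under 0.1. A crossed pairing and the length adjustment were added after seeing the data.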

Additional observations from a re-analysis of the deposited data

How the results depend on the processing

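No member was called by edgeR in any setting run, and the 3 members called higher and 1 called lower came from DESeq2. Over all genes edgeR called 1 higher and 0 lower. It called 0 higher with library size alone, 19 and 8 with no filter, 6 and 3 at an adjusted p under 0.1, and 0 to 41 higher and 0 to 133 lower without single libraries, the high counts being those without WT replicate 2. DESeq2 called 233 higher and 424 lower, and limma called 0 higher and 0 lower on either FPKM scale. The labels do not say that libraries of 1 number belong together, but by Xist and Ddx3y the replicate number also divides the libraries by sex. A block for it is therefore also a block for sex, which the main fit, on genotype alone, left out. With the replicate number as a block edgeR called 46 higher and 70 lower, and with the crossed pairing 65 and 99, while the differences between replicates of KO and of WT correlated at -0.123 across genes. The median over the members lay between 0.25 and 0.38 in every setting run. The count of members above lay between 26 and 31 without single libraries, and that below between 7 and 10, reaching 10 without WT replicate 2; fewer libraries make that order easier to reach (35.7% to 39.5% of genes above and 34.3% to 39.1% below, 38.9% without WT replicate 2). The signs of Ssr3 and Sec24d were not stable. Ssr3 was at 0.00, at -0.02 with DESeq2 size factors and in DESeq2, -0.04 with library size alone and with at least 50 counts, -0.03 with limma on both scales and -0.00 with the replicate block. Sec24d was at 0.05 with limma on both scales and 0.09 with the block. Without single libraries the log2 fold change ranged from -0.63 to 0.80 for Sec24d, -0.11 to 0.08 for Ssr3, -0.43 to 0.20 for Ern1, -0.04 to 0.25 for Atf4, -1.93 to 0.39 for Ppp1r15a, -0.45 to 0.40 for Trib3 and -0.67 to 0.36 for Derl3. The cause was not tested.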
